A study of Mus musculus with 2 samples.

Results

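The genes described here encode the secreted and membrane-bound metalloproteinases that cut extracellular matrix, together with their protein inhibitors. They were chosen by symbol: Mmp followed by digits with or without a or b, Timp with 1 digit, Adamts followed by digits, and Adamtsl with 1 digit. This gave 50 of the 32285 genes in the files, namely 22 Mmp, 4 Timp, 19 Adamts and 5 Adamtsl genes. Mmp1a is not among the files' symbols. No UMI was counted for 4 of them (Mmp1b, Mmp7, Mmp10 and Mmp20), 10 had between 1 and 49 UMIs in all kept cells, and 36 had at least 50.

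The study asks how Hedgehog-interacting protein, an inhibitor of Hedgehog ligands, shapes alveolus formation, and profiled single cells of mouse lung at postnatal day 14. Both mice were Gli1creERT/+ and Hhip flox/flox. The 1 control mouse received oil and the 1 Gli1HHIPCKO mouse received tamoxifen, which activates the recombinase. Stromal and epithelial cells were sorted apart, both without CD31-positive and CD45-positive cells and the stromal ones also without CD326-positive cells, and then mixed at a set ratio.

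The recombinase is made under Gli1, so Hhip is recombined in cells that expressed Gli1 while tamoxifen was active and in their descendants, which need not express Gli1 in these libraries. With 1 mouse per condition, no test was possible, and the mouse, the library, tamoxifen itself and the loss of Hhip cannot be told apart. Xist stood at 0 UMIs in control ALMF-like cells and at 319.8 CPM in Gli1HHIPCKO, while Ddx3y stood at 49.4 CPM and at 0 UMIs, the pattern of mice of opposite sex, and this cannot be told apart from the deletion. The library kit is given as 5′ in one place and as 3′ in another. Levels of the protease and inhibitor genes are therefore compared within a gene. For a summed marker list, the most abundant gene is named to show what the sum rests on.

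The control library held 10999 barcodes and 43291709 UMIs, with a median of 3531 UMIs per barcode. The Gli1HHIPCKO library held 12350 barcodes and 52338969 UMIs, with a median of 3720. The libraries shared 193 barcodes. After filters on genes and mitochondrial share, 10917 and 12115 cells were kept.

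Cells were clustered without integration, and clusters were named from marker lists with the ending "-like". Of the kept cells, 21.6% in the control and 21.7% in Gli1HHIPCKO stayed without a name. Alveolar myofibroblast-like (ALMF-like) cells numbered 1745 and 1081, ductal myofibroblast-like (DMF-like) cells 1033 and 1195, and alveolar type 2-like (AT2-like) cells 2953 and 2804. Several clusters came mostly from 1 library. ALMF-like cells made up cluster m0 with 1195 control and 213 Gli1HHIPCKO cells, m11 with 471 and 62, and m4 with 79 and 806. DMF-like cells made up m3 with 1006 and 15 cells and m1 with 27 and 1180. AT2-like cells made up c0 with 2367 and 785 cells and c1, led by Lcn2, with 586 and 2019. Pericyte-like cells were the single cluster m2, with 429 and 709 cells. Immediate early genes such as Fos, Egr1, Junb and Socs3 were among the leading genes of m11 and of the unnamed stromal cluster m9, which held 14 control and 548 Gli1HHIPCKO cells, or 0.128% and 4.52% of those kept. The sort did not remove every excluded cell: 120 and 93 endothelial-like, 60 and 40 lymphoid-like and 24 and 12 myeloid-like cells were present. Some clusters without a name also scored best as an excluded class. Among these, i0 scored best as lymphoid, with 232 and 90 cells, and c30 as endothelial, with 37 and 9. The sort as described used no red cell marker, and 214 and 195 red cell-like cells were also present. No cluster was named for alveolar type 1 or neuroendocrine cells.

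Of the cells without a name, 4 clusters were kept out because they also carried markers of another lineage, with 625 control and 885 Gli1HHIPCKO cells, or 5.73% and 7.3% of the kept cells. Among them, c10 held AT2 markers beside myofibroblast markers in 411 and 433 cells, and c13 held AT2 markers beside alveolar fibroblast markers in 167 and 404 cells. They made up 3.76% and 3.57% of kept cells (c10) and 1.53% and 3.33% (c13). The limits that kept these clusters and m10 (2.48% and 2.25%) out were set after clusters had been seen.

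Levels are UMIs summed over the cells of a class in 1 library per 1000000 UMIs of that class and library (CPM), with 95% exact Poisson intervals. Differences are log2 ratios of Gli1HHIPCKO over control with 95% exact binomial intervals. Both kinds of interval cover counting error only. A gene was tested in a class when it had at least 50 UMIs there over both libraries, and it is called past the fold when its log2 ratio was at least 1 or at most -1.

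The labels were checked on Hedgehog genes. Hhip (ENSMUSG00000064325, GRCm38 chromosome 8, 79965851 to 80058006) stood at 2455 CPM in the control and 451 CPM in Gli1HHIPCKO in DMF-like cells, and its log2 ratio was -2.44 (-2.52 to -2.37 at 95%). In ALMF-like cells Hhip stood at 502 CPM in the control and 181 CPM in Gli1HHIPCKO, for a log2 ratio of -1.47. Gli1, a transcription factor and target of the pathway, stood at 3.44 CPM in the control and 33.6 CPM in Gli1HHIPCKO in DMF-like cells, for a log2 ratio of 3.29. Ptch1, the receptor and a second target, had log2 ratios of 1.60 in DMF-like and 0.77 in ALMF-like cells. Hhip was thus lower and both targets higher in the tamoxifen-treated mouse.

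Matrix metalloproteinases are made as inactive precursors, are switched on by removal of a propeptide, and together cut collagens, elastin, laminins and many other matrix proteins. TIMPs block their active site, and TIMP3, which stays bound to matrix, also inhibits several ADAM and ADAMTS enzymes. ADAMTS enzymes cut proteoglycans such as versican, process procollagens or act on microfibrils, and ADAMTS-like proteins lack the catalytic domain and bind microfibrils. In the growing lung these families shape the matrix around septa and airspaces.

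In ALMF-like cells 24 of the 50 genes were tested. Past the fold, 3 were higher, where 2.74% of all 10139 genes tested in the class were higher, and 0 were lower, where 1.69% of all genes were. The median log2 ratio of the 24 was 0.28, against 0.01 over all genes. The 9 ALMF markers there summed to 5676 and 5916 CPM (Ltbp2 the most abundant). The 10 adventitial fibroblast markers summed to 192 and 308 CPM (Mfap5) and the 8 AT2 markers to 2195 and 1656 CPM (Sftpc), none at 0. The 8 vascular smooth muscle markers summed to 4685 and 2685 CPM, nearly all Mustn1. Pln was at 0 in both libraries, and Map3k7cl, Sncg and Olfr558 in Gli1HHIPCKO. The part of these lists in the ALMF-like ratios was not tested. In DMF-like cells 24 were tested, 5 were higher (2.45% of all genes) and 2 were lower (2.22%), and the median was 0.015 against 0.01 over all genes. In AT2-like cells 15 were tested, 0 were higher (1.46%) and 1 was lower (1.05%), with a median of -0.10 against 0.01. The members tested here passed a UMI minimum that leaves out the rarely read ones, and counts this small are a description of the list.

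**Figure D1:**
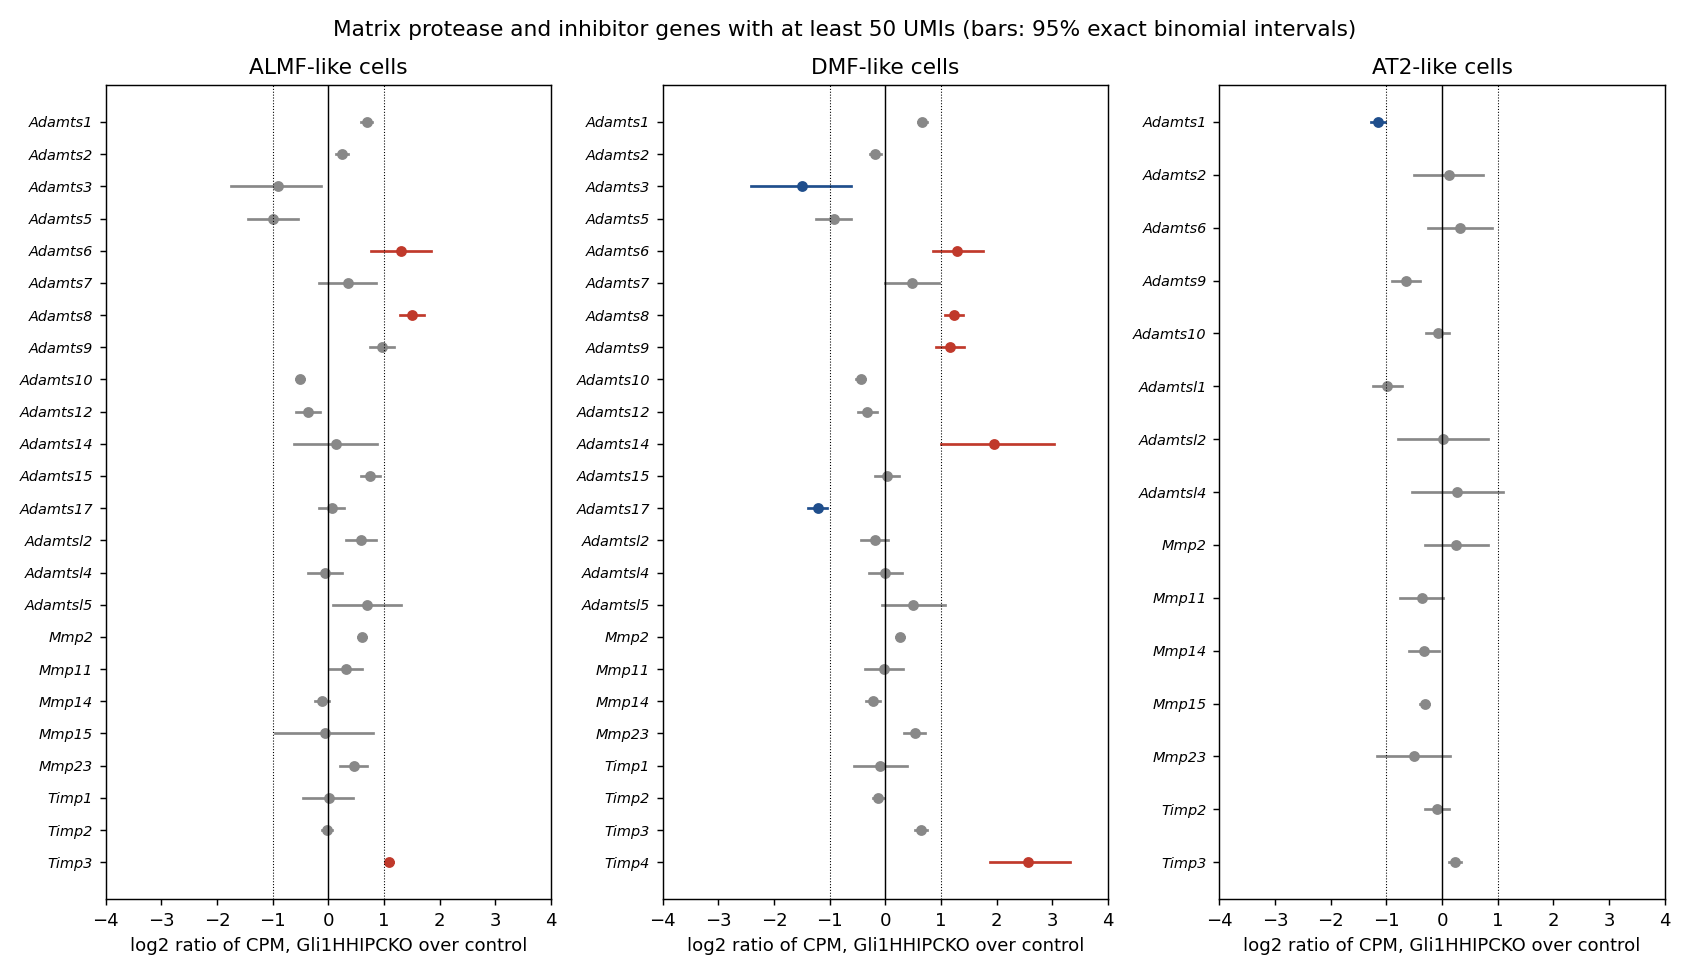
Log2 ratios of CPM, Gli1HHIPCKO over control, for each protease or inhibitor gene with at least 50 UMIs in AT2-like, DMF-like and ALMF-like cells; points are ratios from 1 library per condition, bars are 95% exact binomial intervals, and dotted lines mark a log2 ratio of -1 and 1. Timp4 in DMF-like cells stands farthest to the right, at 2.56.

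Among the inhibitors, Timp3 (ENSMUSG00000020044, GRCm38 chromosome 10, 86300372 to 86349506) stood at 632 CPM in the control and 1349 CPM in Gli1HHIPCKO in ALMF-like cells. Its log2 ratio there was 1.09 (1.03 to 1.16 at 95%). The same gene stood at 167 CPM in the control and 503 CPM in Gli1HHIPCKO in pericyte-like cells, for a log2 ratio of 1.59 (1.32 to 1.88 at 95%). Timp3 was thus past the fold in both of these classes. In DMF-like cells Timp3 stood at 405 CPM in the control and 634 CPM in Gli1HHIPCKO, for a log2 ratio of 0.65, which is short of the fold, although at resolution 0.5 it was 1.08. Vascular smooth muscle-like cells had 778 and 1198 CPM, and peribronchial and airway smooth muscle-like cells 559.6 and 851 CPM. Timp3 was tested in 13 classes, and its log2 ratio was above 0 in 12, with the whole interval above 0 in 10. The exception was ciliated-like cells, at -0.02. In AT2-like cells Timp3 stood at 85.7 and 101 CPM, and in alveolar fibroblast-like cells at 704 and 789 CPM, so there the step was small.

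Because ALMF-like clusters came from the libraries in unequal parts, Timp3 was also read within each cluster. In m0 it stood at 652 and 1478 CPM, for a log2 ratio of 1.18 (1.07 to 1.29 at 95%). In m11 the log2 ratio was 1.22 (1.03 to 1.40 at 95%), and in m4 it was 1.06 (0.71 to 1.44 at 95%). The Timp3 difference within each ALMF-like cluster was therefore close to that over the class. In the DMF-like clusters it was 0.91 (0.33 to 1.56 at 95%) in m1 and 1.03 (0.43 to 1.58 at 95%) in m3, each with few cells from 1 of the libraries. In the unnamed cluster m9 it was 1.26 (0.72 to 1.86 at 95%).

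Counted by cells, 73.0% of control and 85.2% of Gli1HHIPCKO ALMF-like cells held a Timp3 UMI, at median depths of 3103 and 2765 UMIs. Red cell-like cells, which should not make Timp3, held it in 15.4% and 41.5% of cells at median depths of 4977 and 5224 UMIs. With each cell thinned to 2000 UMIs and shallower cells left out (231 and 279), the ALMF-like shares were 64.1% and 86.4%, and the red cell-like shares, with 10 and 14 cells left out, were 9.31% and 23.8%. The shares of Timp3 in ALMF-like cells stood well above this background in both libraries. In pericyte-like cells, at median depths of 1705 and 1802 UMIs, they were 21.7% and 45.3%, or 23.8% and 49.1% after thinning with 265 and 434 cells left out. The log2 ratio of Timp3 in red cell-like cells, 1.61, was close to that in pericyte-like cells in the main analysis. Over the alternatives the red cell-like ratio ranged from 0.94, centred on the median of all genes, to 2.38, with doublets left out. The pericyte-like ratio ranged from 1.33 to 1.65. The part of background in the pericyte-like value was not tested.

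That background itself differed between the libraries. In red cell-like cells 14 members were tested and 5 were past the fold and higher (Adamts8, Adamts9, Adamts15, Adamtsl2 and Timp3), where 25.8% of all genes tested in that class were higher, and 0 were lower, where 1.78% were. The median log2 ratio there was 0.87 for members and 0.67 for all genes. Centred on the median of all genes, Adamts8 stood at 0.96, Timp3 at 0.94 and Adamtsl2 at 0.33, each short of the fold. Adamts9 and Adamts15 stayed past it, at 1.21 and 2.27. Summed over the 10 alveolar fibroblast markers, red cell-like cells held 523 CPM in the control and 1737 CPM in Gli1HHIPCKO, with Fhl1 the most abundant and no marker at 0. Summed over the 9 ALMF markers they held 1451 and 1409 CPM, with Car2 the most abundant. Whether this Car2 came from the red cell-like cells themselves or from outside them was not tested. The part of stromal RNA from outside the cell in the ratios of Timp3 and the other genes was not tested.

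In pericyte-like cells 12 members were tested, with 2 higher (1.98% of all genes) and 1 lower (0.66%), and a median log2 ratio of -0.15 against 0.05 over all genes. The sum of 10 immediate early genes there was 693 CPM in the control and 1216 CPM in Gli1HHIPCKO, with Jun the most abundant. Fos alone had a log2 ratio of 1.77. The 9 ALMF markers, with Ltbp2 the most abundant and none at 0, summed to 5010.1 and 4878 CPM, and the 8 vascular smooth muscle markers to 1620.5 and 1175 CPM, mostly Notch3, with Map3k7cl and Pln at 0 in the control and Itih4, Sncg, Pln and Olfr558 at 0 in Gli1HHIPCKO. The 10 alveolar fibroblast markers summed to 1476 and 1613 CPM (Npnt the most abundant; Wnt2 at 0 in the control), the 10 DMF markers to 664 and 777 CPM (Enpp2; none at 0) and the 10 adventitial fibroblast markers to 217 and 275 CPM (Clec3b; Lum at 0 in the control). The part of these lists and of the immediate early genes in the Timp3 value was not tested.

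Timp4 (ENSMUSG00000030317, GRCm38 chromosome 6, 115241892 to 115252205), the inhibitor tested in the fewest classes here, stood highest in vascular smooth muscle-like cells, at 188 CPM in the control and 273 CPM in Gli1HHIPCKO. Its log2 ratio there was 0.54 (0.29 to 0.79 at 95%). In DMF-like cells Timp4 stood at 7.64 and 45.1 CPM (20 and 161 UMIs), for a log2 ratio of 2.56 (1.89 to 3.31 at 95%). The class of peribronchial and airway smooth muscle-like cells, 163 and 241 cells, differed in its own 9 markers, which summed to 15354 and 5126 CPM with Actc1 the most abundant and none at 0, and in the 8 pericyte markers, at 1273 and 668 CPM with Postn the most abundant and none at 0. The part of these differences in the ratios of Timp4, Adamts9 and Adamts14 in the class was not tested. There Timp4 stood at 6.47 and 78.4 CPM (4 and 59 UMIs), for a log2 ratio of 3.60 (2.17 to 5.52 at 95%). Timp4 was thus higher in Gli1HHIPCKO in each of the 3 classes where it was tested. In vascular smooth muscle-like cells its log2 ratio passed the fold under 4 alternatives, at 1.54 with no cell filter, 2.32 with libraries clustered separately, 1.51 with no gene held out and 1.64 with doublets left out. In that class the 5 red cell markers summed to 441 and 2549 CPM (Hbb-bs the most abundant). The 8 pericyte markers summed to 2972 and 4311 CPM (Postn). The 9 peribronchial and airway smooth muscle markers summed to 6486 and 4213 CPM (Actc1). None of these markers was at 0, and their part in the Timp4 value was not tested.

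Among DMF-like cells with Timp4, every Gli1HHIPCKO UMI came from cluster m1, whose 27 control cells held 0 Timp4 UMIs. That count allows a control level of up to 51.7 CPM, against 45.5 CPM in Gli1HHIPCKO, so a Timp4 difference within m1 was not detectable at this depth. The 8 vascular smooth muscle markers summed to 5588 CPM in control and 2401 CPM in Gli1HHIPCKO DMF-like cells, nearly all of it Mustn1, with Pln and Olfr558 at 0 in both. The 9 peribronchial and airway smooth muscle markers summed to 205 and 552 CPM there, with Actg2 the most abundant and none at 0. The part of either list in the Timp4 value was not tested.

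The remaining inhibitors moved little. Timp2, which also helps MMP14 activate MMP2, stood at 454 and 447 CPM in ALMF-like cells and at 595 and 547 CPM in DMF-like cells. Its highest level was in mesothelial-like cells, at 2165 and 2088 CPM, and its log2 ratio lay between -0.46 and 0.42 over 12 classes. Timp1, the inhibitor often raised in inflamed tissue, had log2 ratios between -0.53 and 0.04 over 6 classes. Neither Timp1 nor Timp2 passed the fold in any class tested.

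**Figure D2:**
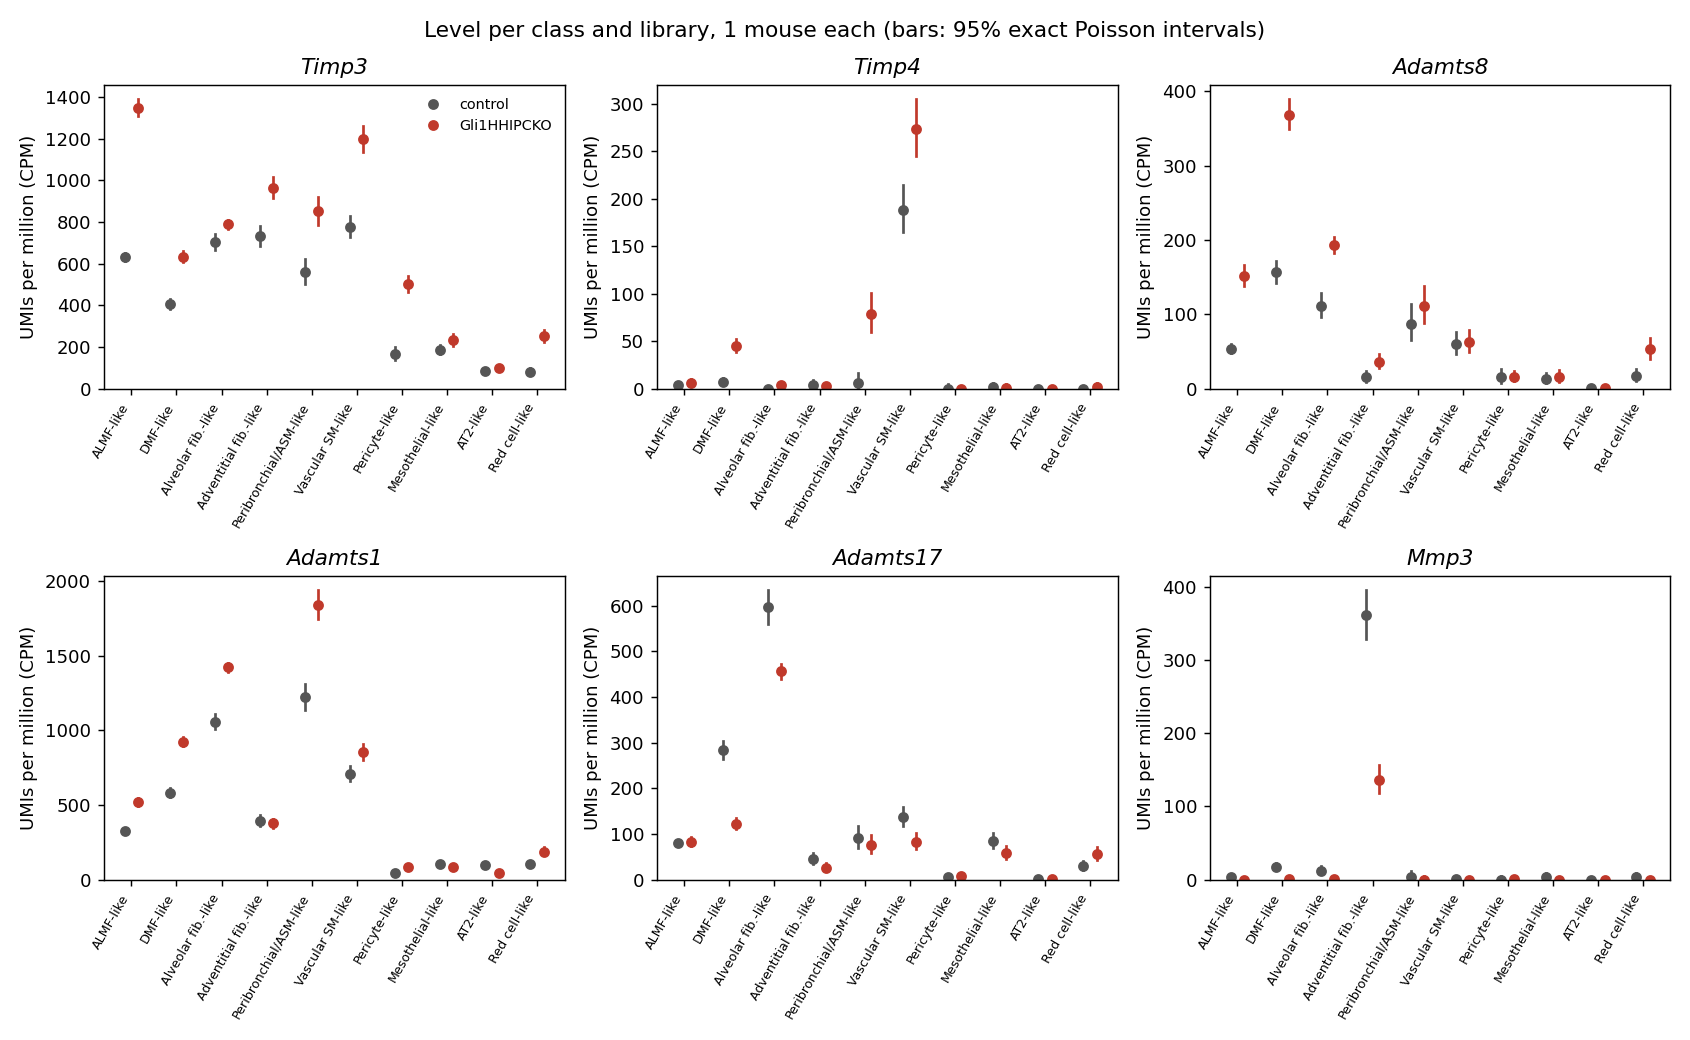
CPM of Timp3, Timp4, Adamts8, Adamts1, Adamts17 and Mmp3 in 10 cell classes, for the control (grey) and Gli1HHIPCKO (red) library, 1 mouse each; points are levels, bars are 95% exact Poisson intervals. Timp4 in vascular smooth muscle-like cells stands at 188 and 273 CPM, and Mmp3 in adventitial fibroblast-like cells at 361 and 137 CPM.

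Among the proteoglycan-cleaving ADAMTS genes, Adamts8 (ENSMUSG00000031994, GRCm38 chromosome 9, 30942562 to 30963838), an enzyme with few known substrates beyond proteoglycans, stood at 157 CPM in the control and 369 CPM in Gli1HHIPCKO in DMF-like cells. Its log2 ratio there was 1.24 (1.07 to 1.40 at 95%). In ALMF-like cells it stood at 53.9 CPM in the control and 152 CPM in Gli1HHIPCKO, for a log2 ratio of 1.49 (1.28 to 1.71 at 95%). Adamts8 was tested in 7 classes, red cell-like cells among them, and had a log2 ratio above 0 in each. The ratios ran from 0.07 in vascular smooth muscle-like cells to 1.63 in red cell-like cells. Adamts8 was held by 12.3% and 24.6% of ALMF-like and 27.2% and 54.2% of DMF-like cells. Red cell-like cells held it in 5.14% and 14.9%. After thinning, these shares were 8.65% and 18.0%, 23.2% and 45.2%, and 1.96% and 7.18%. The part of background in the ALMF-like and DMF-like ratios of Adamts8 was not tested. In vascular smooth muscle-like cells the Adamts8 ratio kept its sign in 7 of 12 alternatives, with -0.45 when doublets were left out. In peribronchial and airway smooth muscle-like cells it was -0.29 at resolution 0.5. The DMF-like ratio of Adamts8 fell short of the fold under 2 alternatives, at 0.83 with libraries clustered separately and 0.96 at resolution 0.5.

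The ALMF-like value of Adamts8 was not seen within every cluster. In m0 Adamts8 stood at 39.4 and 26.1 CPM, for a log2 ratio of -0.60 (-1.42 to 0.13 at 95%). In m11 the log2 ratio was 0.12 (-0.61 to 0.78 at 95%), and in m4 it was 1.38 (0.39 to 2.60 at 95%). Most control ALMF-like cells lay in m0, and most Gli1HHIPCKO cells lay in m4, where Adamts8 stood at 75.9 CPM on 8 UMIs in the control and at 198 CPM in Gli1HHIPCKO. With a clustering resolution of 0.5, which left 1270 and 231 cells in the class, the ALMF-like ratio of Adamts8 was -0.23. In the DMF-like clusters Adamts8 had log2 ratios of 0.47 (-0.18 to 1.20 at 95%) in m1 and 1.49 (0.61 to 2.26 at 95%) in m3.

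**Figure D3:**
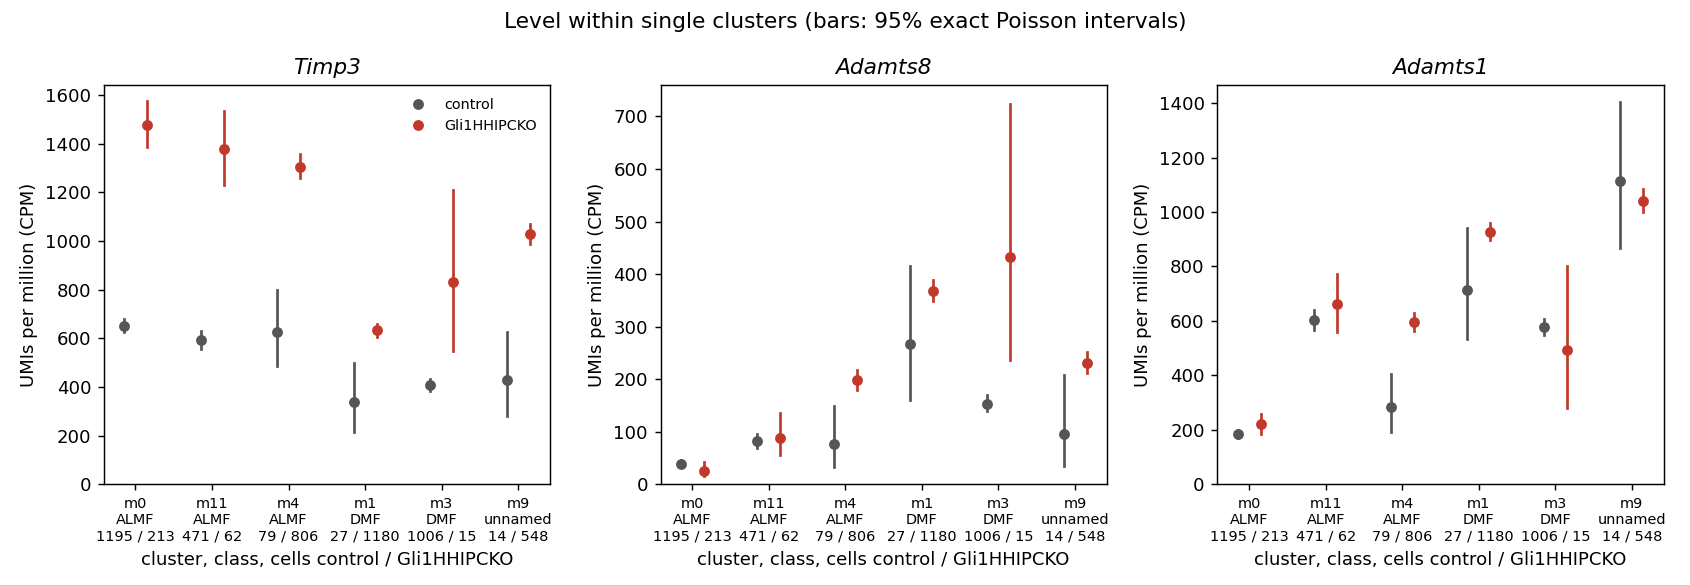
CPM of Timp3, Adamts8 and Adamts1 within ALMF-like clusters m0, m11 and m4, DMF-like clusters m1 and m3 and the unnamed cluster m9, for the control (grey) and Gli1HHIPCKO (red) library, with cells per library under each; bars are 95% exact Poisson intervals. Timp3 stands higher in the Gli1HHIPCKO library in each of the clusters drawn, while Adamts8 in m0 stands at 39.4 and 26.1 CPM.

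Adamts1 (ENSMUSG00000022893, GRCm38 chromosome 16, 85793827 to 85803113), which cuts versican and aggrecan, stood at 323 and 519.8 CPM in ALMF-like cells and at 582 and 924 CPM in DMF-like cells. Its log2 ratios there, 0.69 and 0.67, were short of the fold. In pericyte-like cells Adamts1 stood at 41.8 CPM in the control and 84.6 CPM in Gli1HHIPCKO, for a log2 ratio of 1.02 (0.44 to 1.63 at 95%). Adamts1 was thus past the fold in pericyte-like cells and short of it in both myofibroblast classes. The pericyte-like value did not stand clear of background: 6.99% and 12.7% of these cells held Adamts1 at median depths of 1705 and 1802 UMIs, against 16.4% and 35.9% of red cell-like cells at 4977 and 5224. Thinned to 2000 UMIs, the shares were 7.93% and 16.7% (265 and 434 cells left out) against 7.35% and 22.7% (10 and 14). The pericyte-like call was lost under 5 of 12 alternatives, down to 0.70 with doublets left out. Clusters m11 and m9, led by immediate early genes, held 604 and 1112 CPM of Adamts1 in the control, against 185 CPM in m0. Fos stood at 3848 and 4020.0 CPM in m11 and m9 and at 148 CPM in m0. In the DMF-like cluster m3 Adamts1 stood at 578 CPM in the control with Fos at 131 CPM. Over the whole ALMF-like class the 10 immediate early genes summed to 7808 CPM in the control and 4322 CPM in Gli1HHIPCKO, with Jun the most abundant and none at 0. With the clusters led by these genes left out, an alternative chosen after seeing the data, the log2 ratio of Adamts1 in ALMF-like cells was 1.44, past the fold, and at resolution 0.5 it was 0.32. The part of these genes in the Adamts1 levels of these clusters, or in the pericyte-like value, was not tested.

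In AT2-like cells Adamts1 went the other way. It stood at 97.5 CPM in the control and 43.8 CPM in Gli1HHIPCKO, for a log2 ratio of -1.15 (-1.28 to -1.03 at 95%). The same held in both AT2-like clusters, with log2 ratios of -1.27 (-1.53 to -1.02 at 95%) in c0 and -1.41 (-1.59 to -1.22 at 95%) in c1. The call rests on leaving cluster c10 out of the class: the naming rule was last revised after members' levels had been seen, under both earlier versions c10 counted as AT2-like, and the log2 ratio of Adamts1 was then -0.45, short of the fold. Cluster c10 held 197 and 284 CPM of Adamts1, and its difference, 0.52, had the opposite sign. Counted by cells, 28.1% and 18.4% of AT2-like cells held an Adamts1 UMI at median depths of 4830 and 5732 UMIs, against 16.4% and 35.9% of red cell-like cells at 4977 and 5224 UMIs. The Gli1HHIPCKO share in AT2-like cells was below that in red cell-like cells of the same library, so there it cannot be told apart from background. After thinning to 2000 UMIs, with 103 and 57 cells left out, the AT2-like shares were 14.6% and 7.94%, and the red cell-like ones, with 10 and 14 left out, were 7.35% and 22.7%. In AT2-like cells the 6 alveolar type 1 markers summed to 1444 and 957 CPM (Ager the most abundant, none at 0). The 10 immediate early genes summed to 4331 and 6371 CPM (Jun, none at 0). The part of either list in the AT2-like ratio of Adamts1 was not tested.

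Adamts9, which cuts versican and is also needed inside the cell for secretion, stood at 64.9 CPM in the control and 145 CPM in Gli1HHIPCKO in DMF-like cells, for a log2 ratio of 1.16 (0.91 to 1.42 at 95%). In peribronchial and airway smooth muscle-like cells it stood at 48.5 and 122 CPM, for a log2 ratio of 1.33 (0.72 to 1.98 at 95%). In pericyte-like cells it was lower, at 58.7 and 26.9 CPM, for a log2 ratio of -1.13 (-1.81 to -0.46 at 95%). Pericyte-like cells held Adamts9 in 9.79% and 4.37% of cells at median depths of 1705 and 1802 UMIs, against 5.61% and 19.5% of red cell-like cells at 4977 and 5224. Thinned to 2000 UMIs these shares were 9.76% and 5.45% (265 and 434 cells left out) against 1.96% and 6.63% (10 and 14), so the Gli1HHIPCKO level in pericyte-like cells was not above background. The contrast with the other stromal classes was not tested. Doublets left out gave -0.78 in pericyte-like cells, immediate early-led clusters given their best class gave 0.95 in DMF-like cells and libraries clustered separately gave 0.96 in the peribronchial class, each short of the fold. In ALMF-like cells its log2 ratio, 0.96, lay just short of the fold, which it passed under 3 alternatives, up to 1.10. Control DMF-like cells lay mostly in m3 and Gli1HHIPCKO ones mostly in m1. The part of this split in the DMF-like ratios of Adamts9, Adamts6, Adamts14 and Adamts3 was not tested.

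Adamts15, another enzyme of the versican-cutting group, stood at 174 and 349.6 CPM in alveolar fibroblast-like cells, for a log2 ratio of 1.01 (0.83 to 1.18 at 95%). The Adamts15 call held in 9 of 12 alternatives, with 0.87 when libraries were clustered separately. In red cell-like cells the log2 ratio of Adamts15 was 2.93. The part of background in its alveolar fibroblast-like value was not tested. Adamts5, an aggrecan- and versican-cutting enzyme, was lower in alveolar fibroblast-like cells, at 53.6 and 26.7 CPM, for a log2 ratio of -1.01 (-1.38 to -0.63 at 95%). That call held in 7 of 12 alternatives, and with libraries clustered separately the ratio was -0.44. In ALMF-like and DMF-like cells Adamts5 had log2 ratios of -0.99 and -0.93. Adamts5 was below 0 in 7 of the 8 classes tested, while adventitial fibroblast-like cells stood at 0.48. In alveolar fibroblast-like cells 23 members were tested, with 1 higher (1.93% of all genes) and 1 lower (1.76%), and a median of -0.14 against -0.005 over all genes. Adamts20 reached 50 CPM in glia-like cells alone, with 11 and 19 UMIs. Adamts5 was short of the fold in both myofibroblast classes, although in DMF-like cells it passed under 3 alternatives, down to -1.17.

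Among the procollagen N-proteinases, which trim fibrillar procollagens, Adamts2 stood at 309 and 365 CPM in ALMF-like cells and at 599 and 529 CPM in DMF-like cells. Adamts14 in DMF-like cells rested on 11 and 58 UMIs, with 4.20 and 16.2 CPM and a log2 ratio of 1.95 (1.01 to 3.03 at 95%). In peribronchial and airway smooth muscle-like cells Adamts14 had a log2 ratio of 1.08 (0.15 to 2.08 at 95%). Adamts3 went down in DMF-like cells, from 35 to 17 UMIs, for a log2 ratio of -1.49 (-2.42 to -0.61 at 95%). In DMF-like cells Adamts14 was thus higher and Adamts3 lower, on small counts, while Adamts2 stayed short of the fold. The Adamts14 call in the peribronchial class held in 7 of 9 alternatives, with 0.69 for the mean over cells of per-cell CPM. Peribronchial and airway smooth muscle-like cells had 17 members tested, with 3 higher (2.72% of all genes) and 0 lower (2.26%), and a median of 0.35 against 0.05 over all genes. No cell took this name with no cell filter or with doublets left out, and 107 and 28 did at resolution 0.5, so these calls rest on a class that not every alternative keeps.

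Of the enzymes tied to microfibrils, Adamts10, which binds fibrillin, stood at 1141 and 802 CPM in ALMF-like cells and at 1096 and 806 CPM in DMF-like cells. Its log2 ratios were -0.51 and -0.44. Adamts6, its close relative, stood at 9.46 and 23.4 CPM in ALMF-like cells (1.30 on the log2 scale, 0.77 to 1.85) and 21.0 and 51.5 CPM in DMF-like cells (1.30, 0.85 to 1.76). In both myofibroblast classes Adamts6 was therefore past the fold and Adamts10 was not, although with immediate early-led clusters given their best class the DMF-like ratio of Adamts6 was 0.98. Within m0, though, Adamts6 had 33 and 5 UMIs and a log2 ratio of -0.23 (-1.94 to 1.14 at 95%).

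Adamts17 (ENSMUSG00000058145, GRCm38 chromosome 7, 66839735 to 67153171), an enzyme whose human gene is mutated in a short-stature and eye disorder like that of ADAMTS10, was lower in DMF-like cells. It stood there at 283 CPM in the control and 122 CPM in Gli1HHIPCKO, for a log2 ratio of -1.21 (-1.39 to -1.04 at 95%). In ALMF-like cells it stood at 79.8 and 83.1 CPM, with a log2 ratio of 0.06, and in alveolar fibroblast-like cells, where its level was highest, at 596 and 456 CPM. Adamts17 kept its direction and stayed past the fold in DMF-like cells under every alternative run. Within m1 its log2 ratio was -0.80 (-1.54 to 0.05 at 95%) and within m3 -0.04 (-1.17 to 0.89 at 95%), each resting on few cells of 1 library. Adamts12, which cuts cartilage oligomeric matrix protein, had log2 ratios of -0.32 in DMF-like cells and -0.37 in ALMF-like ones.

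Among the ADAMTS-like genes, Adamtsl2, which binds fibrillin and a latent TGF-beta binding protein, stood at 577 and 499 CPM in alveolar fibroblast-like cells, where it was highest, and had log2 ratios of -0.19 in DMF-like cells and 0.59 in ALMF-like ones. Adamtsl3 was lower in adventitial fibroblast-like cells, at 47.9 and 21.2 CPM, for a log2 ratio of -1.18 (-1.83 to -0.54 at 95%). Adamtsl1 in AT2-like cells stood at 22.0 and 11.1 CPM, for a log2 ratio of -0.98 (-1.25 to -0.72 at 95%), just short of the fold. Adamtsl4 and Adamtsl5 passed the fold in no class, with log2 ratios from -0.67 to 0.27 over 8 classes and from -0.16 to 0.69 over 6.

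Among the metalloproteinases, the gelatinase Mmp2 stood at 603 and 916 CPM in ALMF-like cells, for a log2 ratio of 0.60 (0.53 to 0.68 at 95%). In DMF-like cells it stood at 842 and 1013 CPM, and in alveolar fibroblast-like cells, its highest named class, at 1151 and 1273 CPM. Mmp2 was above 0 on the log2 scale in 11 of 12 classes and below it in vascular smooth muscle-like cells, at -0.33, and it passed the fold in none. Its membrane-bound activator Mmp14 stood at 290.1 and 269 CPM in ALMF-like cells and at 329 and 219 CPM in alveolar fibroblast-like cells. Mmp14 had a log2 ratio below 0 in 9 of 11 classes, down to -0.58, and it too passed the fold in none.

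The stromelysin Mmp3 (ENSMUSG00000043613, GRCm38 chromosome 9, 7445822 to 7455975), which cuts many matrix proteins and activates other precursors, was read mainly in adventitial fibroblast-like cells. It stood there at 361 CPM in the control and 137 CPM in Gli1HHIPCKO, for a log2 ratio of -1.40 (-1.64 to -1.16 at 95%). In DMF-like cells it had 45 and 2 UMIs, under the minimum, with a log2 ratio of -4.94 (-8.03 to -3.00 at 95%). In ALMF-like cells Mmp3 had 22 and 0 UMIs, that is 3.93 CPM in the control. In Gli1HHIPCKO the floor of 3 UMIs, set in place of a count of 0 for calls, equals 1.00 CPM. Counted by cells, Mmp3 was held by 0.917% and 0% of ALMF-like, 3.00% and 0.167% of DMF-like and 25.4% and 14.7% of adventitial fibroblast-like cells, against 1.87% and 0% of red cell-like cells, so in ALMF-like cells it did not stand above this background. Median depths were 3103 and 2765, 2459 and 2866, 3336 and 2966.5, and 4977 and 5224 UMIs. Thinned to 2000 UMIs, the adventitial fibroblast-like shares were 20.6% and 12.95% (83 and 136 cells left out), the DMF-like ones 2.51% and 0.204% (275 and 214), the ALMF-like ones 0.462% and 0% (231 and 279) and the red cell-like ones 0% in both (10 and 14). Adventitial fibroblast-like cells had 24 members tested, with 1 higher (2.86% of all genes), which was Adamts8 at 1.22 (0.46 to 2.03 at 95%), and 2 lower (0.885%), which were Mmp3 and Adamtsl3. The median there was 0.07 against 0.05 over all genes. Adamts8 was held by 5.07% and 8.12% of adventitial fibroblast-like cells at median depths of 3336 and 2966.5 UMIs, against 5.14% and 14.9% of red cell-like cells at 4977 and 5224, or 3.31% and 6.33% (83 and 136 cells left out) against 1.96% and 7.18% (10 and 14) after thinning, so it did not stand clear of background. In these cells the 9 ALMF markers summed to 289.7 and 554 CPM (Ltbp2 the most abundant; none at 0) and the 10 DMF markers to 787 and 1221 CPM (Aspn; none at 0). The 10 alveolar fibroblast markers summed to 1329 and 1907 CPM (Fhl1; none at 0) and the 9 peribronchial and airway smooth muscle markers to 157 and 74.5 CPM (Actc1; Otof at 0 in the control). The part of these lists in the Adamts8 ratio was not tested. The Adamts8 call held in 9 of 11 alternatives and the Adamtsl3 call in 10 of 12. With the mean over cells of per-cell CPM both calls were lost, at 0.325 and -0.88.

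Of the other metalloproteinases, Mmp11, a stromelysin activated inside the cell by furin, stood at 113 and 102 CPM in alveolar fibroblast-like cells. Membrane-bound Mmp15 stood in AT2-like cells at 194 and 156 CPM, with a log2 ratio of -0.31 (-0.39 to -0.24 at 95%). Mmp23, which is anchored in the membrane through its propeptide, stood at 135 and 195 CPM in DMF-like cells, for a log2 ratio of 0.53 (0.35 to 0.72 at 95%). None of Mmp11, Mmp15 and Mmp23 passed the fold in a class in the main analysis. Mmp23 depended on the clustering: in alveolar fibroblast-like cells its log2 ratio was 0.44, but 1.11 with libraries clustered separately, and in ALMF-like cells it was 0.45, but -0.86 at resolution 0.5. Mmp28 reached 50 CPM over both libraries in endothelial-like cells alone, on 13 and 12 UMIs, and Mmp25 in myeloid-like cells alone, on 3 and 0 UMIs.

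Collagenases and the metalloelastase were close to absent from these cells. The collagenase Mmp8, made mainly by neutrophils, had 6 UMIs in all, and the macrophage metalloelastase Mmp12 had 3. The sort was set to remove CD45-positive cells, the usual source of both Mmp8 and Mmp12. The near absence of both genes here therefore says nothing of the whole lung. The 18 genes given no values of their own reached 50 CPM in no class and passed the fold in none where they were tested. Vascular smooth muscle-like cells had 23 members tested with 0 higher (1.98% of all genes) and 0 lower (0.999%), and mesothelial-like cells 16 with 0 higher (1.54%) and 0 lower (1.52%). Their medians were -0.16 against 0.03 and -0.20 against 0.01 over all genes. No member passed the fold in endothelial-like cells (7 tested; 3.47% of all genes higher, 2.22% lower), ciliated-like cells (4 tested; 1.4% and 0.848%) or glia-like cells (3 tested; 6.2% and 3.36%).

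Other proteases and regulators of the pathway were read from a list of 36 genes. In ALMF-like cells 27 were tested, and 1 was higher (2.74% of all genes) and 1 lower (1.69%): Pcolce, which enhances procollagen C-proteinase, at 1.22 (1.02 to 1.42 at 95%), and the membrane protease Adam33 at -1.32 (-1.63 to -1.03 at 95%). In AT2-like cells 22 were tested, with 1 higher (1.46%) and 2 lower (1.05%): the procollagen C-proteinase Bmp1, at 127 and 254 CPM (1.01 on the log2 scale), and Pcsk6 and Htra1, at -1.76 and -1.18. In DMF-like cells 27 were tested, with 1 higher (2.45%) and 2 lower (2.22%). Medians of the list were 0.06 in ALMF-like, -0.07 in DMF-like and -0.01 in AT2-like cells, against 0.01 over all genes in each.

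Substrates were read beside the enzymes. Vcan, the versican gene, stood at 128 and 110.1 CPM in DMF-like cells, for a log2 ratio of -0.22, and at 0.24 on the log2 scale in ALMF-like cells. Fbn1, the main fibrillin gene, had log2 ratios of 0.48 in DMF-like cells and 0.60 in ALMF-like ones. Fbn2, the fibrillin gene of earlier development, was lower, at 32.0 and 5.01 CPM in ALMF-like cells (-2.67) and 40.5 and 12.0 CPM in DMF-like cells (-1.75). In both myofibroblast classes Fbn2 was thus past the fold and Fbn1 was not.

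Promoters were looked up for the 5 members selected as past the fold and higher in DMF-like cells; that they moved together beyond this selection was not tested. RefSeq (GRCm38.p6) promoters were found for 35 of the 50 members, with 38 starts, and for Adamts9, Adamts14 and Timp4 of the 5; Adamts6 and Adamts8 have no entry. The 250 bases before the start were searched on both strands for 4 motifs, with all 32851 promoters of the same length beside them. The GLI motif, spelled GACCACCCA, occurs in 0.225% of all promoters and in 0 of the 38 member promoters. The core promoter motif spelled TATAAA occurs in 12.4% and in 9 of the 38. The motif bound by Sp1, spelled GGGCGG, occurs in 32.7% and in 20 of the 38. The motif bound by Fos and Jun, spelled TGANTCA with N for any base, occurs in 6.75% and in 7 of the 38. The stretches are given 5′ to 3′ on the gene's strand, which is the minus strand for all 3, with matches in capitals; the Adamts14 stretch held 6 matches to the Sp1 motif, some overlapping, the Adamts9 stretch 1, and the Timp4 stretch none of the 4 motifs. A match is a description of the letters and no sign of binding.
Adamts14 (chr10:61273420-61273669): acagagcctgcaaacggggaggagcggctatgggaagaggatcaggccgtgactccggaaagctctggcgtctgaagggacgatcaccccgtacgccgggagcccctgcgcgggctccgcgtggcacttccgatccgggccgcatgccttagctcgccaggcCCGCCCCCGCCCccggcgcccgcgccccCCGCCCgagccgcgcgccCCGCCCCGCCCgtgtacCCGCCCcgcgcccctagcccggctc
Adamts9 (chr6:92943535-92943784): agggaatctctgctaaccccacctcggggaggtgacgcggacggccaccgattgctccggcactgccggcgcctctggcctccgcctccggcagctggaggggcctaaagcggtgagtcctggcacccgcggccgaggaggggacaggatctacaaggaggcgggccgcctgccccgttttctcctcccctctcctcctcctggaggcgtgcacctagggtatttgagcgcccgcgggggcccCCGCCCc
Timp4 (chr6:115252206-115252455): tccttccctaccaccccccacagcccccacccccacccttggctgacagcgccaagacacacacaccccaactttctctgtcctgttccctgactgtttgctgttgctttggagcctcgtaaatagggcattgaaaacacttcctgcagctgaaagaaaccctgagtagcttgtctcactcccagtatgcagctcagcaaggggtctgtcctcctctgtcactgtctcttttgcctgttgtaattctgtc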

How the data were processed

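The deposited matrices hold raw UMI counts per gene and cell, which the authors made with CellRanger 6.1.0 per the file headers (the labels name 3.1.0) on mm10. Kept cells had 200 to 6000 genes and no more than 10% of UMIs from mitochondrial genes. Counts were log-normalised, and both libraries were clustered together in 2 rounds (2000 variable genes with 93 held out, 30 components, 20 neighbours, Leiden resolution 1) with numpy 2.4.6, scipy 1.17.1, pandas 2.3.3, scikit-learn 1.9.0, igraph 0.11.9 and leidenalg 0.10.2 in Python 3.11.15; figures used matplotlib 3.10.9. Clusters were named from 18 marker lists, of which the lists for 5 fibroblast classes come from the study's own table made on these libraries.

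The naming rule has 3 versions. It was revised 2 times after clusters had been seen, the last time with members' levels already printed. Both earlier versions were run as alternatives: ALMF-like and DMF-like cells were the same under each, and AT2-like cells numbered 3364 and 3237 under the earlier ones. Doublets were kept in the main analysis, and 953 and 1174 high-scoring cells were left out in an alternative.

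UMIs were summed per class and library. The ratios and their binomial intervals were tested on simulated totals. The class sums and the Poisson intervals were not tested in this way. Named genes were members at 50 CPM in any named class or past the fold, with the most counted member of any role group that had neither. The members and lists were chosen with earlier results of these data known. Alternatives changed the cell filter, scaling, averaging, genes in the total, resolution, joint clustering, held-out genes, doublets and the UMI minimum. With 1 library per condition, no test was run. Positions are from GENCODE.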

Additional observations from a re-analysis of the deposited data

Results flagged for a closer look

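Some members passed the fold in opposite directions in different classes. Adamts1 had a log2 ratio of 1.02 in pericyte-like cells and -1.15 in AT2-like cells. Adamts9 had log2 ratios of 1.16 in DMF-like, 1.33 in peribronchial and airway smooth muscle-like and 1.88 in red cell-like cells, and -1.13 in pericyte-like cells. The difference between classes was not tested for Adamts1 or Adamts9. Neither the pericyte-like value of Adamts1 nor the Gli1HHIPCKO level of Adamts1 in AT2-like or of Adamts9 in pericyte-like cells stood clear of background: Adamts1 was held by 6.99% and 12.7% of pericyte-like and 28.1% and 18.4% of AT2-like cells against 16.4% and 35.9% of red cell-like cells, and Adamts9 by 9.79% and 4.37% of pericyte-like against 5.61% and 19.5% of red cell-like cells. Median depths were 1705 and 1802 UMIs in pericyte-like, 4830 and 5732 in AT2-like and 4977 and 5224 in red cell-like cells. For cells thinned to 2000 UMIs the Adamts1 shares were 7.93% and 16.7%, 14.6% and 7.94% and 7.35% and 22.7%, and those of Adamts9 9.76% and 5.45% and 1.96% and 6.63%, with 265 and 434 pericyte-like, 103 and 57 AT2-like and 10 and 14 red cell-like cells left out. For red cell-like cells the median log2 ratio of all genes was 0.67.

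Members also passed the fold, higher in Gli1HHIPCKO, in clusters without a name, which no comparison of classes in the main analysis uses. Only members higher in Gli1HHIPCKO were looked for in these clusters, so any lower ones are not listed. Small clusters and those with few cells from 1 library, such as m9, were left out. In c10, with AT2 and myofibroblast markers, Adamts9 stood at 1.11 and Timp4 at 1.53 on the log2 scale. In c13, with AT2 and alveolar fibroblast markers, Adamts8 stood at 1.25 and Adamts15 at 1.00. In i1, which scored under the minimum for every class, Adamts9 stood at 1.04 and Adamtsl2 at 1.25. In the stromal cluster m14, Adamts1 stood at 1.04 and Adamts15 at 1.06, and in m16 Adamts8 stood at 1.07 and Adamtsl2 at 2.13. These differences were not tested either.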

How the results depend on the processing

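Of the 14 alternatives, 4 were chosen after seeing the data: both earlier naming rules, and the clusters led by immediate early genes left out or given their best class. Of 27 log2 ratios past the fold, 26 kept their sign and 11 stayed past the fold under each alternative that gave a value; among these 11 were Timp3 in ALMF-like (1.04 to 1.22) and pericyte-like cells (1.33 to 1.65), Timp4 in DMF-like cells (1.42 to 2.68), Adamts17 in DMF-like cells (-1.69 to -1.20) and Mmp3 in adventitial fibroblast-like cells (-1.53 to -1.03). The ratio of Adamts8 in ALMF-like cells reversed to -0.23 at resolution 0.5.

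The count of 3 members higher in ALMF-like cells became 1 (Timp3) at resolution 0.5 and with libraries clustered separately, and 5 with no gene held out and with immediate early-led clusters left out. The 3 also became 4 for the mean over cells of per-cell CPM and 2 with a minimum of 200 UMIs. Of members lower there, 0 became 2 with a minimum of 20 UMIs. In DMF-like cells the 5 higher became 3 with a minimum of 200 UMIs and with immediate early-led clusters given their best class. The 5 also became 4 with libraries clustered separately and 6 with a minimum of 20 UMIs. The 2 lower became 5 at resolution 0.5, 3 with no cell filter and 1 with doublets left out. They became 4 with a minimum of 20 UMIs, 1 with a minimum of 200 and 4 with immediate early-led clusters given their best class. Where the DMF-like count held, genes were exchanged: Timp3 for Adamts8 among the higher at resolution 0.5, and among the lower Adamts5 for Adamts3 with libraries clustered separately and Mmp3 for Adamts3 with no gene held out. In AT2-like cells the 0 higher became 2 with a minimum of 20 UMIs and 1 (Timp4) under both earlier naming rules. The 1 lower became 2 with abundant gene families left out of the total and 3 with a minimum of 20 UMIs; under both earlier naming rules it was still 1, but Adamtsl1 in place of Adamts1. A lower or higher UMI minimum changes which genes are tested. Adamts3 in DMF-like cells gave a value in 9 alternatives and Adamts6 in ALMF-like cells in 10, past the fold in each. Elsewhere they fell under the UMI minimum. Otherwise the cause was not tested.

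Ratios short of the fold in the main analysis passed it in some alternative in these classes (farthest value): ALMF-like Adamts1 1.44 and Adamts9 1.10, DMF-like Adamts5 -1.17 and Timp3 1.08, peribronchial Adamts5 -1.06, adventitial Adamts17 -1.29, alveolar fibroblast-like Mmp23 1.11, vascular smooth muscle-like Adamts17 -1.04, Adamtsl2 -1.16 and Timp4 2.32, AT2-like Adamtsl1 -1.02, endothelial-like Adamts1 -1.45, and red cell-like Adamts1 1.37, Adamts2 1.06, Adamts10 1.14, Adamts17 1.78 and Mmp2 1.10. At resolution 0.5 the ALMF-like ratios of Adamts2 (-0.43), Adamts17 (-0.51), Mmp23 (-0.86), Mmp11 (-0.07) and Timp1 (-0.19) changed sign. Some ratios short of the fold changed sign in other classes too. Among them, Adamtsl1 in alveolar fibroblast-like cells went from -0.73 to 0.90 with libraries clustered separately.

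Scaling moved the median of all genes by over 0.1 on the log2 scale in red cell-like cells, by -0.67 when centred on the median, by -0.40 with abundant families out of the total and by 0.19 for the mean over cells, and in glia-like cells by 0.11 with abundant families out. Ratios of genes under a UMI minimum gave no value there. The alternatives with no cell filter and with doublets left out gave none for peribronchial and airway smooth muscle-like cells, since no cell took that name. No paired analysis was possible because each condition had 1 mouse. Depth limits the sparse genes: Adamts14 in DMF-like cells rests on 11 and 58 UMIs.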

Other observations

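The unnamed cluster m10, with markers of adventitial and alveolar fibroblasts in 271 control and 273 Gli1HHIPCKO cells, held Timp3 at 1391 CPM over both libraries, above the 990.0 CPM of its highest named class. Values pooled over both libraries do not rank clusters within a library. Among classes with at least 100 cells in each library, Timp3 was highest in vascular smooth muscle-like cells in the control. In Gli1HHIPCKO it was highest in ALMF-like cells. In the unnamed cluster m14, Mmp2 stood at 1892 CPM over both libraries, against 1247 CPM in its highest named class.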
